A study of Homo sapiens with 18 samples.

Results

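Uveal melanomas fall into a class 1 expression profile, with a low risk of metastasis, and a class 2 profile, with a high risk. The 8 genes EIF1B, FXR1, ID2, LMCD1, LTA4H, MTUS1, ROBO1 and SATB1 are higher in class 1 tumours. They were taken as a set named for that property, with earlier results of these data known, and made up 8 of the 26475 gene symbols of the table. All 8 passed the filter on low counts in every comparison.

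A clinical expression panel reads these genes together with 4 genes that are higher in class 2 (CDH1, ECM1, HTR2B and RAB31) and 3 control genes (MRPS21, RBM23 and SAP130). The class 2 profile goes with loss of the deubiquitinase BAP1 and of a copy of chromosome 3, on which 5 of the 8 class 1 genes lie. The members do different work. ROBO1 is a receptor of SLIT ligands in cell guidance and ID2 is a helix-loop-helix inhibitor of E proteins. EIF1B is a translation initiation factor, FXR1 an RNA-binding protein of the fragile X family and LMCD1 a LIM-domain co-regulator that binds GATA6. MTUS1 is a microtubule-associated protein, LTA4H makes leukotriene B4 and SATB1 organises chromatin at AT-rich DNA.

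RNA-seq was run on MP41 and Mel92.1, human cell lines from uveal melanoma, after DMSO (vehicle), UNC0642 at 1 μM or A366 at 1 μM for 48 h. UNC0642 and A366 inhibit EHMT2, a histone methyltransferase that dimethylates lysine 9 of histone H3, and also its partner EHMT1. Each of the 6 groups had 3 libraries, 18 in all. The groups asked which genes change when EHMT2 is inhibited in either line. Each line stands for 1 tumour, and according to the methods the lines were grown in media with different shares of serum, so line and medium cannot be told apart. The methods call the replicates of every experiment biological, and the labels do not tie these libraries to separate cultures, so the p-values measure the spread between these libraries, part of which may be technical.

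The libraries held 23601160 to 62941453 counts (median 41955691). From 3.31% to 32.8% of the counts fell on 4 ribosomal RNA genes, and the library of UNC0642 replicate 1 in Mel92.1 had both the highest such share and the lowest total. In 4 libraries the line read from the data went against the label. The libraries labelled Mel92.1 with A366, replicates 2 and 3, held 24 genes found only in MP41 at 110% and 108% of their DMSO level, and 16 genes found only in Mel92.1 at 0.0392% and 0.0054%. The libraries labelled MP41 with A366, replicates 2 and 3, held the Mel92.1 genes at 116% and 92.8% and the MP41 genes at 0.0384% and 0.0262%. The study's own table of changed genes exchanges these 4 libraries, and they are placed here in the line whose genes they hold. Results with A366 are also given as labelled, where the A366 groups hold libraries of both lines and their values include the line difference. They are also given with the 4 libraries left out. This leaves 1 A366 library in each line and assumes that it varies like the other groups. All 7 melanocyte lineage markers were present in either line, with summed levels of 15000 to 24420 CPM (CPM being counts scaled to a common library size, here with TMM factors). EHMT2 and EHMT1 mRNA check no label here, since the inhibitors act on the proteins.

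With DMSO, 7 of 8 members differed between Mel92.1 and MP41 at an adjusted p under 0.05 (edgeR quasi-likelihood test, Benjamini-Hochberg over all genes tested), beside 76.4% of the 14829 genes tested (38.1% higher and 38.4% lower in Mel92.1). The replicates of the lines did not overlap for any of the 8 members, beside 79.4% of genes. ROBO1, LMCD1 and SATB1 were lower in Mel92.1, and MTUS1, EIF1B, ID2 and LTA4H were higher. The members' median log2 difference was 0.15, beside −0.01 over all genes tested.

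ROBO1 in the DMSO libraries stood at 80.3, 76.3 and 85.9 CPM in MP41 and at 13.1, 9.45 and 8.84 CPM in Mel92.1. The lowest MP41 library thus stood well above the highest Mel92.1 library. The log2 difference, Mel92.1 minus MP41, was −2.95 (SE 0.14, adjusted p = 1.25e-07), larger in size than 90.3% of the genes tested. On that scale the other members lay at 11.8% (FXR1) to 80.1% (LMCD1). LMCD1 read 25.5, 25 and 21.6 CPM in MP41 and 7.49, 6.57 and 8.09 CPM in Mel92.1. Its log2 difference was −1.71 (SE 0.11, adjusted p = 1.04e-06), and the groups did not overlap. SATB1 read 19.6, 15.8 and 19.6 CPM in MP41 and 9.81, 8.09 and 7.47 CPM in Mel92.1, a log2 difference of −1.12 (SE 0.14, adjusted p = 5.45e-05). SATB1 shares its strand with part of TBC1D5, and how the counting split reads between them is not given in the sources used here.

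MTUS1 led the members that were higher in Mel92.1. It read 90.2, 81.1 and 78.6 CPM there and 44.1, 42.9 and 46.6 CPM in MP41, a log2 difference of 0.90 (SE 0.08, adjusted p = 4.73e-06). EIF1B read 42.8, 52.6 and 51.2 CPM in Mel92.1 and 31.3, 30.3 and 28.3 CPM in MP41. Its log2 difference was 0.70 (SE 0.09, adjusted p = 0.000102). Every Mel92.1 library was above every MP41 library for these genes. ID2 read 105, 122 and 118 CPM in Mel92.1 and 81.6, 77.6 and 82.6 CPM in MP41, a log2 difference of 0.51 (SE 0.07, adjusted p = 0.0002). LTA4H read 93.2, 93.6 and 88.2 CPM in Mel92.1 and 63.9, 68.1 and 67.6 CPM in MP41, a log2 difference of 0.45 (SE 0.06, adjusted p = 0.000138).

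The promoters of ROBO1 and EIF1B are shown because these members had the largest differences between A366 and DMSO in MP41, in opposite directions, and differed between the lines in opposite directions too. RefSeq (GRCh38.p14) gave the 250 bases before 2 starts of ROBO1 and 1 start of EIF1B, here 5′ to 3′ on the gene's strand. Capitals mark matches, on either strand, to the GC box GGGCGG, the CCAAT box CCAAT, the TATA box TATAAA, the MITF E-box CACGTG or the cAMP response element TGACGTCA, and no matches overlap in these windows.
ROBO1, distal start, chr3:79767999-79768248, minus strand: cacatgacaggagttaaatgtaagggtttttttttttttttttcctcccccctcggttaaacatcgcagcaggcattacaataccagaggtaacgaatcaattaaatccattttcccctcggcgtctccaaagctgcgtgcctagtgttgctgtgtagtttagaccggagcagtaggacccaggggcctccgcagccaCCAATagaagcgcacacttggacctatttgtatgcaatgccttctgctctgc
ROBO1, proximal start, chr3:79019460-79019709, minus strand: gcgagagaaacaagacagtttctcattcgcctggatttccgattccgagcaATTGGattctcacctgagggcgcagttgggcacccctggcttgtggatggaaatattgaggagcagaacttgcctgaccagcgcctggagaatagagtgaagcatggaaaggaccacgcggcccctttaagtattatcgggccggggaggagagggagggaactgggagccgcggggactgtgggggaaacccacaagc
EIF1B, chr3:40309457-40309706, plus strand: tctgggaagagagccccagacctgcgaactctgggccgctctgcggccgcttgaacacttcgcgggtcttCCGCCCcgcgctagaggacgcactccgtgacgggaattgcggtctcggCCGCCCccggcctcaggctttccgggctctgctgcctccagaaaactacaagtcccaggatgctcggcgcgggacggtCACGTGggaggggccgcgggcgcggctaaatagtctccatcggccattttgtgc

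The ROBO1 windows held 9 and 12 CpG dinucleotides, near the median of 11 over 35116 RefSeq promoters, with 1 CCAAT box each and no GC box. The EIF1B window held 27 CpG, more than 82.3% of promoters, with 2 GC boxes and 1 MITF E-box. Over all promoters 42.6% held the GC box, 32.0% the CCAAT box and 6.3% the MITF E-box. Of the other members that rose with A366 in MP41, the ID2 window held 29 CpG and the LMCD1 window 24, and that of FXR1, which fell, held 16. Of the members that did not pass there, LTA4H held 14 and the 4 windows of SATB1 held 6 to 24. The highest SATB1 window thus equalled that of LMCD1, the lowest of the members that rose. The other windows of members that did not rise held fewer, and a link of CpG count to the change was not tested. A match describes letters in a window and not a bound site, and 7 of 8 members had an entry.

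FXR1 was the member that missed the threshold. It read 186, 167 and 161 CPM in Mel92.1 and 188, 190 and 194 CPM in MP41. The log2 difference was −0.16 (95% interval −0.32 to −0.004, adjusted p = 0.0592). With an offset for the GC content and length of each gene it became 0.55 (adjusted p = 1.85e-05), so its direction depended on the processing, and without DMSO replicate 1 of Mel92.1 it was −0.20 (adjusted p = 0.000768). In that offset fit the other 7 members kept their direction and passed, but 3 values moved by over 1.5 times: ID2 to 0.21, LTA4H to 0.91 and SATB1 to −0.63.

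**Figure D1:**
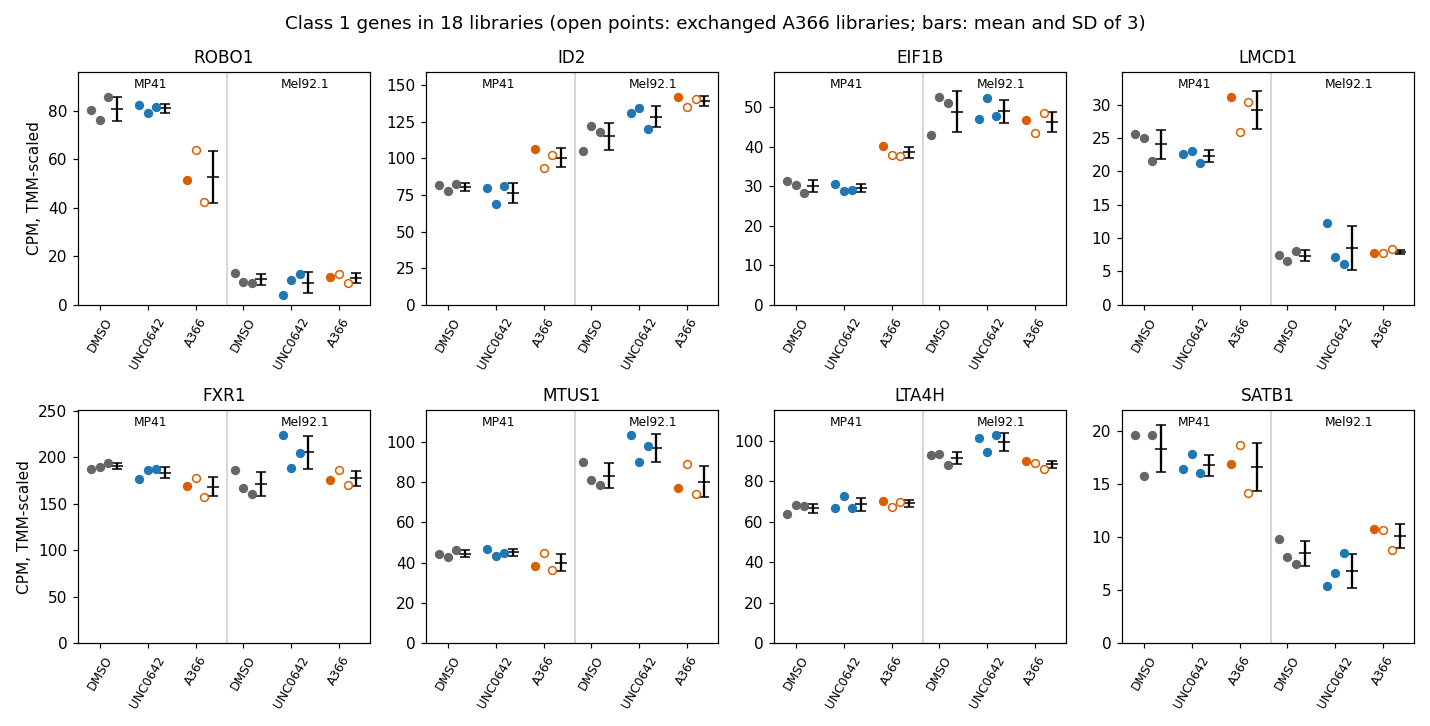
Level of each class 1 gene in each of the 18 libraries, in TMM-scaled CPM, with DMSO in grey, UNC0642 in blue and A366 in orange. Open points are the 4 exchanged libraries and bars give the mean and SD of 3. ROBO1, LMCD1 and SATB1 are lower in Mel92.1, MTUS1, EIF1B, ID2 and LTA4H are higher there, and ROBO1 with A366 in MP41 stands at 42.4 to 63.8 CPM against 76.3 to 85.9 CPM with DMSO.

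Levels can be compared between genes only per length, here as CPM per kb of the longest annotated transcript, a rough scale since the transcripts in use were not known. In MP41 with DMSO the order was ID2 (39.5), EIF1B (29.7), FXR1 (21.9), LTA4H (10.9), ROBO1 (10.8), MTUS1 (7.12), LMCD1 (2.86) and SATB1 (2.34). The ranges of LTA4H and ROBO1 overlapped, and no other neighbours did. In Mel92.1 with DMSO the order was ID2 (56.4), EIF1B (48.4), FXR1 (19.7), LTA4H (15.01), MTUS1 (13.3), ROBO1 (1.39), SATB1 (1.08) and LMCD1 (0.88). There ID2 overlapped EIF1B, ROBO1 overlapped SATB1, and SATB1 overlapped LMCD1. The order thus differed mainly in ROBO1, which stood beside LTA4H in MP41 and beside SATB1 in Mel92.1.

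UNC0642 changed none of the class 1 genes at the threshold. In MP41, 0 of 8 members passed, beside 0.241% of the 14956 genes tested, and 0 had an unadjusted p under 0.05, beside 8.8% of genes. DESeq2, limma voom and every other alternative also called 0. The members' log2 differences lay between −0.13 (SATB1) and 0.04 (LTA4H), with a median of −0.04. ROBO1 with UNC0642 read 82.5, 79.1 and 81.8 CPM, inside the range of the DMSO libraries, and its log2 difference was 0.001 (95% interval −0.26 to 0.26).

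In Mel92.1, UNC0642 gave 0 of 8 calls, beside 0.688% of the 14528 genes tested, and 2 members had an unadjusted p under 0.05, beside 9.93% of genes. FXR1 read 224, 188 and 205 CPM with UNC0642 against 186, 167 and 161 CPM with DMSO. Its groups did not overlap, nor did those of LTA4H, beside 15.4% of all genes, and its log2 difference was 0.26 (SE 0.08, unadjusted p = 0.00942, adjusted p = 0.307). MTUS1 read 104, 89.9 and 98.1 CPM against 90.2, 81.1 and 78.6 CPM, a log2 difference of 0.22 (SE 0.09, unadjusted p = 0.0374, adjusted p = 0.468). Its groups overlapped by 1 library. The library rich in ribosomal RNA was the highest of its group for both genes and the lowest for ROBO1, at 4.25 CPM beside 10.2 and 12.9 CPM. Without it FXR1 stood at 0.20 (adjusted p = 0.387) and MTUS1 at 0.17 (adjusted p = 0.577). LMCD1 went from 0.18 to −0.16 and ROBO1 from −0.18 to 0.14, and again 0 of 8 members passed. DESeq2 and limma voom called 0 with all libraries. The part of the ribosomal RNA in these values was not tested.

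With A366 in MP41, EIF1B, ID2 and LMCD1 rose, ROBO1 and FXR1 fell, and MTUS1, SATB1 and LTA4H did not pass. The share of 5 in 8 members is near that of all genes tested, of which 46% passed, 22.5% higher and 23.5% lower, and the members' median was −0.07 beside 0.02 over all genes. The A366 libraries in MP41 held 5.93% to 10.96% ribosomal RNA and those with DMSO 3.31% to 5.10%, and the part of this in the changes was not tested. In bulk RNA, fewer cells with a transcript and less of it per cell cannot be told apart.

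ROBO1 changed the most. It read 51.5, 63.8 and 42.4 CPM with A366 and 80.3, 76.3 and 85.9 CPM with DMSO. Every A366 library was below every DMSO library. The log2 difference was −0.64 (SE 0.12, adjusted p = 0.00142), a level 0.640 times that with DMSO (95% interval of the log2 difference −0.90 to −0.39) and larger in size than 83.1% of the genes tested. On that scale the other members lay at 5.38% (LTA4H) to 54.2% (EIF1B). ROBO1 passed in all 23 alternatives, from −1.74 as labelled (adjusted p = 0.0444) to −0.35 with the GC and length offset (adjusted p = 0.00189). As labelled the A366 group holds Mel92.1 libraries, with ROBO1 at 12.6 and 8.89 CPM. That value thus mixes the line difference with the change and does not test A366 alone. With the 4 exchanged libraries left out the ROBO1 difference was −0.69.

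Among the members that rose, EIF1B read 40.3, 37.8 and 37.6 CPM with A366 and 31.3, 30.3 and 28.3 CPM with DMSO. The log2 difference was 0.34 (SE 0.07, adjusted p = 0.00248). ID2 read 106, 93.5 and 102 CPM against 81.6, 77.6 and 82.6 CPM, a log2 difference of 0.30 (SE 0.08, adjusted p = 0.00865). In both genes every A366 library stood above every DMSO library. As labelled the values were 0.57 for EIF1B and 0.68 for ID2, and both passed. Mel92.1 libraries then enter the group, and both genes were higher in that line with DMSO, so these values do not test A366 alone. With the exchanged libraries left out the values were 0.38 for EIF1B and 0.36 for ID2. With the GC and length offset EIF1B fell short at 0.13 (adjusted p = 0.208) and ID2 at 0.05 (adjusted p = 0.621).

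LMCD1 and FXR1 rested on less. LMCD1 read 31.2, 25.9 and 30.4 CPM with A366 and 25.5, 25 and 21.6 CPM with DMSO, so the lowest A366 library nearly met the highest DMSO library. Its log2 difference was 0.25 (SE 0.09, adjusted p = 0.0397), and it passed in 10 of 23 alternatives. With the GC and length offset it was 0.64 (adjusted p = 0.00203). As labelled it was −0.62 (adjusted p = 0.333), since Mel92.1 libraries then enter the group. Without DMSO replicate 3 it was 0.18 (adjusted p = 0.174), without DMSO replicate 2 it was 0.28 (adjusted p = 0.0582), without A366 replicate 1 it was 0.21 (adjusted p = 0.159) and without A366 replicate 3 it was 0.22 (adjusted p = 0.118). Without any 1 of the UNC0642 libraries, which only share the estimate of the spread, its adjusted p was 0.05 to 0.0538.

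FXR1 read 169, 178 and 158 CPM with A366 and 188, 190 and 194 CPM with DMSO. The groups did not overlap, which held for 5 of 8 members and 58% of the genes tested, and the log2 difference was −0.20 (SE 0.06, adjusted p = 0.0208). With the GC and length offset it was 0.28 (adjusted p = 0.00199), so the direction turned. Its adjusted p was 0.0558 to 0.0774 without any 1 of the 3 DMSO libraries or without A366 replicate 1, and 0.0657 without A366 replicate 3.

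Of the members that missed the threshold, MTUS1 stood at −0.18 (adjusted p = 0.0999), SATB1 at −0.17 (adjusted p = 0.27) and LTA4H at 0.03 (adjusted p = 0.729). MTUS1 read 38.6, 44.8 and 36.6 CPM with A366 against 44.1, 42.9 and 46.6 CPM with DMSO. Without A366 replicate 2 its log2 difference was −0.27 (adjusted p = 0.00362), and with the exchanged libraries left out −0.25 (adjusted p = 0.037). In the fit with the GC and length offset LTA4H passed, at 0.38 (adjusted p = 0.00297). As labelled, 3 of 8 members passed (EIF1B, ID2 and ROBO1), and with the exchanged libraries left out 6 of 8, with MTUS1 added.

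**Figure D2:**
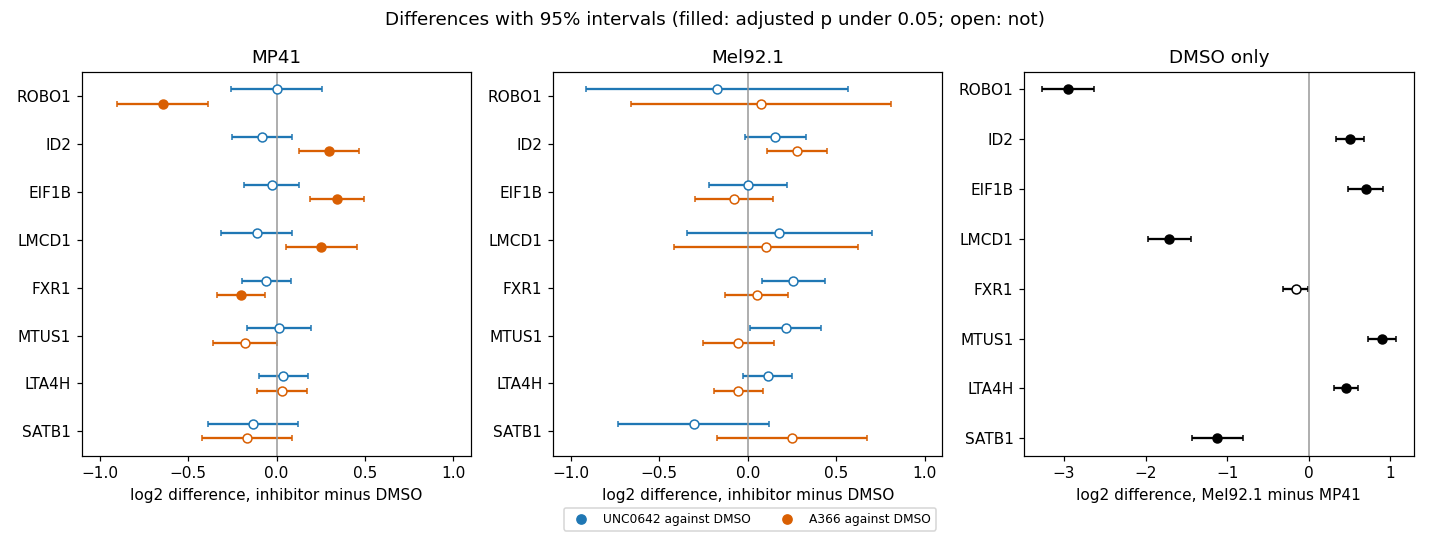
Log2 difference of each class 1 gene with its 95% interval: inhibitor minus DMSO in MP41 (left) and in Mel92.1 (middle), and Mel92.1 minus MP41 with DMSO (right, on a wider axis). Filled points passed an adjusted p under 0.05: 5 with A366 in MP41, 7 between the lines, and none with UNC0642 or with A366 in Mel92.1.

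**Figure D3:**
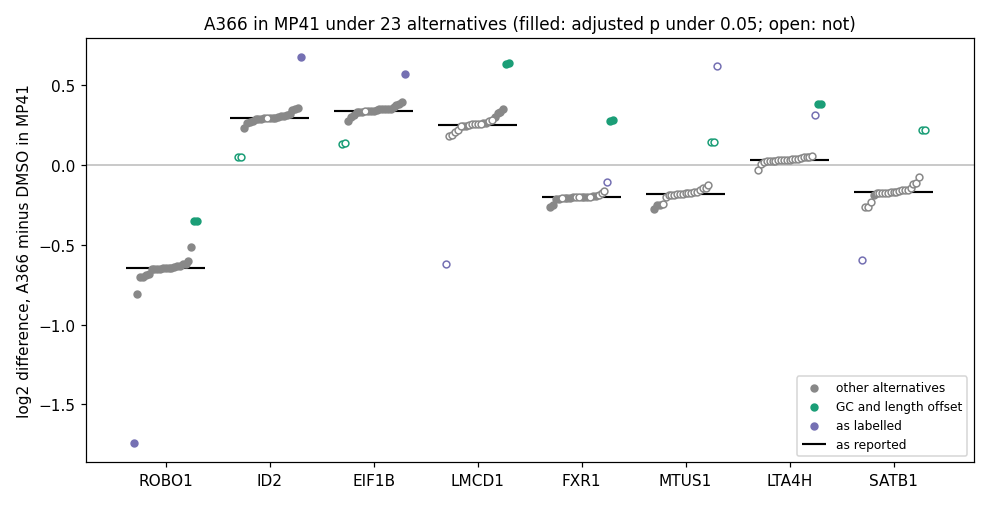
Log2 difference, A366 minus DMSO in MP41, of each class 1 gene under 23 alternatives, with the reported value as a bar. ROBO1 lies below 0 and is filled throughout, FXR1 turns above 0 with the GC and length offset (green), and LMCD1 turns below 0 as labelled (purple).

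In Mel92.1, A366 gave 0 of 8 calls, beside 0.213% of the genes tested. ID2 alone among the members had an unadjusted p under 0.05, beside 4.32% of genes. It read 142, 135 and 141 CPM with A366 and 105, 122 and 118 CPM with DMSO, a log2 difference of 0.28 (SE 0.08, unadjusted p = 0.00453, adjusted p = 0.394). Its groups did not overlap, 1 of 8 members beside 15.7% of the genes tested. Under the GC and length offset ID2 passed in Mel92.1, at 0.29 (adjusted p = 0.0342). DESeq2 called 0 members, and limma voom with sample quality weights called 3, which were ID2 (0.23, adjusted p = 0.00329), SATB1 (0.40, adjusted p = 0.00729) and EIF1B (−0.16, adjusted p = 0.0427). ROBO1 read 11.6, 12.6 and 8.89 CPM, within the spread of DMSO, with a wide interval of −0.66 to 0.81. As labelled, LMCD1 was 1.55 and ROBO1 1.92 (adjusted p = 0.165 for both), and 0 members passed. With the exchanged libraries left out ID2 was 0.30 and 0 passed.

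A366 and UNC0642 were also set against each other at the matched dose and time. In MP41, 4 of 8 members differed, beside 43.1% of all genes. EIF1B, ID2 and LMCD1 were higher with A366 (21.1% of genes were) and ROBO1 was lower (22% were). The log2 difference, A366 minus UNC0642, was −0.64 for ROBO1 (95% interval −0.90 to −0.39, adjusted p = 0.00145). It was 0.37 for EIF1B (0.21 to 0.52, adjusted p = 0.00178), 0.38 for ID2 (0.21 to 0.55, adjusted p = 0.0026) and 0.37 for LMCD1 (0.17 to 0.57, adjusted p = 0.00746). The A366 libraries did not overlap those of UNC0642 for any of these 4 genes, beside 51.6% of all genes. For LTA4H the difference was −0.01 with an interval of −0.15 to 0.13, and for SATB1 −0.03 with an interval of −0.29 to 0.22. Under the GC and length offset ROBO1 (−0.38) and LMCD1 (0.73) passed, EIF1B (0.16, adjusted p = 0.132) and ID2 (0.14, adjusted p = 0.148) did not, and FXR1, LTA4H and SATB1 turned positive and passed (0.30, 0.31 and 0.32). As labelled 3 members passed, without LMCD1 at −0.51, and with the exchanged libraries left out 5, with MTUS1 added. In this contrast and in that with DMSO the same A366 libraries were used, and the contrasts of the inhibitors with DMSO share their DMSO libraries.

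In Mel92.1 the compounds did not differ at the threshold in any of the 8 members, beside 0.165% of all genes. An unadjusted p under 0.05 was found for 4 members, beside 7.21% of genes, and replicates that did not overlap for 5, beside 14.5%. DESeq2 and limma voom called 0. SATB1 read 10.8, 10.7 and 8.77 CPM with A366 and 5.35, 6.602 and 8.48 CPM with UNC0642, a log2 difference of 0.56 (95% interval 0.13 to 0.98, unadjusted p = 0.0159, adjusted p = 0.604). The lowest value was again the library rich in ribosomal RNA, and without it the difference was 0.42 (adjusted p = 0.552). MTUS1 was −0.27 (−0.47 to −0.07), FXR1 −0.21 (−0.38 to −0.03) and LTA4H −0.17 (−0.30 to −0.03), all lower with A366. As labelled and with the exchanged libraries left out 0 members passed.

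The response to A366 differed between the lines in 1 of 8 members, beside 13.8% of the 15799 genes tested (8.67% lower, the direction of that member). EIF1B rose in MP41 and stood at −0.08 in Mel92.1 (46.8, 43.4 and 48.5 CPM with A366 against 42.8, 52.6 and 51.2 CPM with DMSO). The difference of the log2 changes, Mel92.1 minus MP41, was −0.44 (SE 0.12, adjusted p = 0.0218), and −0.48 with an adjusted p of 0.18 when the exchanged libraries were left out. Under the GC and length offset it was −0.23 (adjusted p = 0.218), and LTA4H passed in its place (−0.46, adjusted p = 0.0309). For EIF1B the adjusted p was 0.0538 to 0.0862 without any 1 of 7 libraries (A366 replicates 1 and 2 and DMSO replicates 2 and 3 of Mel92.1, A366 replicates 1 and 3 and DMSO replicate 3 of MP41). ROBO1 fell in MP41 alone by the threshold, but its difference between the lines, 0.69, had an interval of −0.02 to 1.41 (adjusted p = 0.179). Without the library rich in ribosomal RNA it was 0.69 (adjusted p = 0.0365) and by limma voom 0.95 (adjusted p = 5.25e-06), so its call depended on that library and on the tool. FXR1 passed without DMSO replicate 1 of Mel92.1 (0.29, adjusted p = 0.0319), by DESeq2 (0.24, adjusted p = 0.0436) and by limma voom (0.26, adjusted p = 0.00019). As labelled 7 of 8 members passed, and in that placement the A366 groups hold libraries of both lines. For UNC0642 the responses differed in 0 of 8 members, beside 0.601% of all genes, with 2 at an unadjusted p under 0.05 (FXR1 at 0.32 and ID2 at 0.24), beside 9.79% of genes. DESeq2 and limma voom called 0 there.

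Genes related to the members were followed as lists, chosen with earlier results of these data known, under A366 in MP41 unless stated. Of the family of ID2 and other targets of BMP signalling 6 of 7 were higher, beside 22.5% of all genes, with a median log2 difference of 0.54. ID3, which like ID2 lacks a DNA-binding domain and holds E proteins inactive, went from 86.8 ± 5.10 to 166 ± 31.9 CPM (SD, n = 3), a log2 difference of 0.91 (SE 0.11, adjusted p = 0.000297). ID1 was 0.71 and ATOH8 0.55 (adjusted p = 0.000777 and 0.000761). SMAD6 and SMAD7, inhibitory SMADs, were 0.54 and 0.45 (adjusted p = 0.00125 and 0.0169), BAMBI, a pseudoreceptor, 0.34 (adjusted p = 0.00505), and ID4 stood at 0.06 (adjusted p = 0.463). In Mel92.1 0 of the 7 passed, beside 0.213% of all genes. The difference between the lines passed for ATOH8, BAMBI, ID3 and SMAD6, each with a lower change in Mel92.1, beside 8.67% of all genes. With the GC and length offset 2 of the 7 passed with a lower change, and with scaling by library size only 1. As labelled 2 passed with a higher change and 2 with a lower one. With the exchanged libraries left out 5 of 7 were higher in MP41, without SMAD7 (adjusted p = 0.0897), and the line difference held for BAMBI and ID3 (adjusted p = 0.0378 for both). As labelled, ID1 and ID3 were the 2 that rose in MP41, and with the GC and length offset 5 of 7 rose, without BAMBI (0.12, adjusted p = 0.072), while ID2 itself stood at 0.05 (adjusted p = 0.621). Of the E proteins that ID2 binds, TCF12 fell by 0.48 (adjusted p = 0.0104), TCF3 stood at −0.01 and TCF4 was at or near 0 CPM.

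In the SLIT-ROBO pathway 6 of 9 genes passed the filter beside ROBO1, of which 3 fell, beside 23.5% of all genes, and 1 rose, beside 22.5%, with a median of −0.35. The ligand SLIT2 was −0.44 (adjusted p = 0.0304), and the GTPase-activating proteins SRGAP1 and SRGAP2, which act below the receptor, were −0.42 and −0.33 (adjusted p = 0.0209 and 0.0264). The receptor ROBO3 rose by 0.45 (adjusted p = 0.00538). With the GC and length offset 0 of the 3 fell (SLIT2 −0.16, SRGAP1 0.17 and SRGAP2 −0.13), and ROBO3 rose (0.29, adjusted p = 0.0223). As labelled the same 3 genes fell and ROBO3 was −0.73 (adjusted p = 0.392), and with the exchanged libraries left out all 4 passed in the same direction. ROBO2, another SLIT receptor, stood at 34.3 ± 7.17 CPM in Mel92.1 with DMSO (SD, n = 3) and had 0 counts in the MP41 DMSO libraries, so the line low in ROBO1 held ROBO2.

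In the other lists, EIF1, the close paralog of EIF1B, rose by 0.44 (adjusted p = 0.000586), and how reads shared by the paralogs were split cannot be seen in the table. EIF1AX fell by 0.27 (adjusted p = 0.00338). FMR1, of the family of FXR1, fell by 0.32 (adjusted p = 0.015). With the GC and length offset EIF1 (0.37) passed, while TCF12 (−0.15), FMR1 (0.04) and EIF1AX (0.09) did not. As labelled EIF1, TCF12 and FMR1 passed, and EIF1AX (0.14) did not. With the exchanged libraries left out all 4 passed in the direction given. GATA6, the partner of LMCD1, stood at −0.05 (adjusted p = 0.848). The leukotriene genes gave 0 calls of 2 tested, and ALOX5, which makes leukotriene A4, the substrate of LTA4H, was at or near 0 CPM in every group. With UNC0642, 0 genes of these lists passed in either line.

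Of the class 2 genes, 2 changed with A366 in MP41 and 1 in Mel92.1, beside 46% and 0.213% of all genes. With UNC0642, 1 changed in each line, beside 0.241% of all genes in MP41 and 0.688% in Mel92.1. HTR2B, a serotonin receptor, fell with UNC0642 in both lines, by 0.66 in MP41 (adjusted p = 0.00672) and by 1.28 in Mel92.1 (adjusted p = 0.0426), and stood at 0.14 and 0.03 with A366. The value in Mel92.1 did not pass as labelled (−1.30, adjusted p = 1), with the exchanged libraries left out (−1.29, adjusted p = 0.203) or with library size only (−1.46, adjusted p = 0.132). It passed without the library rich in ribosomal RNA (−1.01, adjusted p = 0.000388) and with the GC and length offset (−1.33, adjusted p = 0.0182). In MP41 it did not pass as labelled (−0.66, adjusted p = 1). ECM1, an extracellular matrix protein, rose with A366 by 1.56 in Mel92.1 (adjusted p = 0.0199), from 5.32 ± 0.85 to 15.7 ± 1.101 CPM (SD, n = 3), and by 0.23 in MP41 (adjusted p = 0.0284). Its values were 1.54 (adjusted p = 1) and 0.24 (adjusted p = 0.0589) with the exchanged libraries left out, 4.75 (adjusted p = 0.162) and −1.12 (adjusted p = 0.349) as labelled. RAB31, a small GTPase, fell with A366 in MP41 by 0.23 (adjusted p = 0.0136), by 0.29 with the exchanged libraries left out and by 0.74 as labelled. Under the GC and length offset neither passed in MP41 (ECM1 0.05 and RAB31 −0.07). With library size only, A366 gave 0 calls of higher class 2 genes in either line, ECM1 included. CDH1 was at or below 1.07 CPM on average in every group. All 3 panel controls changed with A366 in MP41, beside 46% of all genes, MRPS21 by 0.51 and RBM23 by 0.25 upward and SAP130 by 0.39 downward (adjusted p = 0.00357, 0.0131 and 0.0231). All 3 passed with those libraries left out, and MRPS21 alone as labelled. BAP1 was expressed in both lines, at 98.6 ± 6.08 CPM in MP41 and 119 ± 6.69 CPM in Mel92.1 with DMSO (SD, n = 3), and did not pass with either inhibitor.

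**Figure D4:**
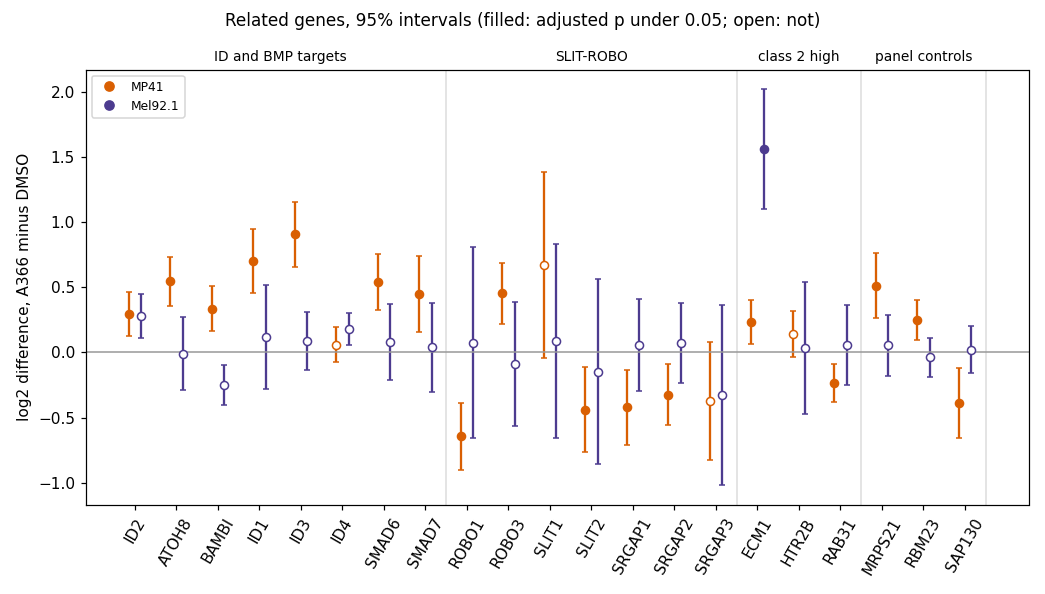
Log2 difference, A366 minus DMSO, with 95% intervals in MP41 (orange) and Mel92.1 (purple) for ID2 with its family and BMP targets, ROBO1 with the SLIT-ROBO pathway, the class 2 genes and the panel controls, where tested in both lines. Filled points passed an adjusted p under 0.05. In MP41 6 of 7 genes of the ID2 list are higher, and in Mel92.1 ECM1 is the filled point.

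Markers of other cell types were few beside the melanocyte markers. In MP41 with A366 the retinal pigment epithelium list summed to 33.98 to 34.3 CPM against 18 to 20.98 CPM with DMSO, with BEST1 and RLBP1 higher (2 of 3) and RPE65, its defining enzyme, at 0 in every MP41 library. The endothelial list summed to 2.37 to 3.14 CPM against 0.369 to 0.584 CPM, with VWF higher (1 of 3), PECAM1 at 0.243 CPM or less on average and CDH5 at or near 0. The fibroblast list summed to 23.1 to 24.2 CPM against 28.1 to 31.1 CPM, with 2 of 4 lower. As labelled 0 of that list were lower, and with the GC and length offset 1. Of the retinal pigment epithelium list 1 was higher as labelled and 2 with the offset, and of the endothelial list 0 and 1. The leukocyte list, mostly CD68, summed to 167 to 178 CPM against 152 to 174 CPM with 0 of 4 passing, and the keratinocyte list to at most 0.0346 CPM. Of the melanocyte markers 3 were higher (MLANA, PMEL and SOX10) and 3 lower (DCT, MITF and TYRP1), beside 22.5% and 23.5% of all genes. As labelled 1 was higher and 1 lower, and with the GC and length offset 2 and 2. With UNC0642, 2 melanocyte markers were higher in Mel92.1 and 1 in MP41, beside 0.551% and 0.114% of all genes. The part of the marker genes in the changes of the class 1 genes was not tested.

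The members did not vary as a block. Over the 18 libraries, after each line's mean was taken out, FXR1 and MTUS1 varied together (Pearson r = 0.88), as did ROBO1 and SATB1 (r = 0.73) and EIF1B and ID2 (r = 0.69), while ROBO1 and LMCD1 went opposite ways (r = −0.87). These describe 18 libraries that share treatments and the library rich in ribosomal RNA, and carry no test. Among 11926 genes the one most like ROBO1 was OGT (r = 0.99), followed by WDFY3 (r = 0.985). The nearest was GIGYF2 for FXR1 (r = 0.963), GOLGA7B for ID2 (r = 0.959), RPL39L for EIF1B (r = 0.955), LMCD1 had PTS and SATB1 had DLC1 (r = 0.933 for both), MTUS1 had MAP4K4 (r = 0.929) and LTA4H had MTURN (r = 0.863).

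The 5 members on chromosome 3 went different ways between the lines, with EIF1B higher in Mel92.1, LMCD1, ROBO1 and SATB1 lower and FXR1 short of the threshold. The other 802 chromosome 3 genes had a median log2 difference of −0.07, 34.4% of them higher and 39.2% lower in Mel92.1, beside −0.01, 38.1% and 38.4% over all genes. In GENCODE v29 coordinates of GRCh38, ROBO1 spans chr3:78597240-79767815 on the minus strand and EIF1B chr3:40309684-40312424 on the plus strand.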

How the data were processed

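The deposited table holds expected counts per gene from RSEM (version 1.2.15, with Bowtie2 2.1.0 and hg38, per the labels), not normalized. The authors' methods instead name TopHat, Cufflinks and a mouse build, which do not describe this table. Values were rounded (5.86% to 13.4% were not whole). Genes were filtered with filterByExpr, scaled by TMM and tested with edgeR 4.0.16 (glmQLFit, glmQLFTest, R 4.3.3). The p-values were Benjamini-Hochberg adjusted across the genes that passed the filter in each fit, at a threshold of 0.05. Each line was fitted on its 9 libraries, the line difference on 6 DMSO libraries and the difference in response on 18. The 4 exchanged A366 libraries were placed by their line, as the study's own table of changed genes does. Alternatives used DESeq2 1.42.0, limma 3.58.1, other scalings and filters, a GC and length offset and leaving out libraries. Scripts were tested on simulated data. Replicate numbers gave no clear pairing: same-number correlations were over 0.1 in 2 of 9 pairs in either line. Those of different numbers were over 0.1 in 9 of 18 pairs in Mel92.1 and 7 of 18 in MP41. Between DMSO and UNC0642 in MP41, same-number correlations were 0.067, 0.266 and 0.169, beside −0.204 to 0.081 for different numbers. Pairing of those libraries was thus not settled, and the main fits used none. Named genes were the members, their panel and pathway lists, markers and the 2 most alike genes per member. Members and lists were chosen with earlier results of these data known. A listed gene is not reported here.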

Additional observations from a re-analysis of the deposited data

Results flagged for a closer look

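EIF1B was picked out because its response to A366 differed between the lines by an interaction test: the log2 change was lower in Mel92.1 than in MP41, the difference being −0.44 (SE 0.12, edgeR adjusted p = 0.0218). Under the GC and length offset it was −0.23 (adjusted p = 0.218), and −0.23 with the replicate block added (adjusted p = 0.254). It was called in 18 of 30 alternatives, with adjusted p from 9.56e-07 to 0.258. No sample was tested for lying apart, since every group had 3 libraries.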

How the results depend on the processing

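The number of class 1 genes called stayed within 1.5 times its value in every alternative but the following. For A366 against DMSO in MP41 it was 5, and 3 as labelled, 3 with all 18 libraries in 1 fit, 1 when a fold of at least 1.5 at an unadjusted p under 0.05 was asked for, and 3 to 6 when each library was left out in turn. For A366 against UNC0642 in MP41 it was 4, and 1 with that fold threshold (4 to 6 with a library left out). For A366 against DMSO in Mel92.1 it was 0, and 1 with the GC and length offset and 3 with limma voom (0 with any library left out). For the line difference in the response to A366 it was 1, and 7 as labelled, 7 with limma voom, 2 with DESeq2, and 0 with the exchanged libraries left out, with library size only, with the GC and length offset and the replicate block, or with the fold threshold (0 to 2 with a library left out). It was 1 under the offset without the block too, but for LTA4H (−0.46) in place of EIF1B (−0.23, adjusted p = 0.218). Between the lines with DMSO it was 7, and 7 to 8 with a library left out. For A366 against DMSO in MP41 the GC and length offset kept the number within 1.5 times but not the same genes. EIF1B and ID2 missed there, LTA4H passed, and FXR1 passed in the other direction. The causes were not tested.

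With the GC and length offset (without and with the replicate block) these values reversed: FXR1 with A366 against DMSO in MP41 (0.28 and 0.28), against UNC0642 (0.30 and 0.30) and between the lines (0.55 and 0.55), and, for A366 against UNC0642 in MP41, LTA4H (0.31 and 0.31) and SATB1 (0.32 and 0.32). As labelled, LMCD1 reversed for A366 in MP41 against DMSO (−0.62) and UNC0642 (−0.51) and in the line difference in the response to A366 (2.14), where MTUS1 also reversed (−1.25). In 83 of 1720 values the sign changed with neither value past the threshold. The replicate block alone left every count within 1.5 times, with 4 members for A366 in MP41 since LMCD1 missed (adjusted p = 0.0543). Scaling by library size alone moved the median of all genes by up to 0.25 (UNC0642 in Mel92.1 at −0.23). Among all genes called, those higher then made up 38% in place of 49% for A366 against UNC0642 in MP41, 90% in place of 62.5% for the same in Mel92.1, 53.3% in place of 37.2% for the line difference in response to A366 and 56% in place of 80% for that to UNC0642. For A366 against DMSO in MP41, 15.7% (fold threshold) to 68.5% (limma voom) of all genes were called, in place of 46%. SATB1 and ROBO1 in Mel92.1 rest on the fewest counts (88 and 70 in the library rich in ribosomal RNA).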
